A study of Mus musculus with 3 samples.

Results

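Initiation and elongation factors are the proteins that bring ribosome, mRNA and tRNA together and move the ribosome along the message. Their genes were described here in pooled liver RNA of male C57BL/6J mice on 3 diets. The genes were chosen by name, as those whose symbol starts with Eif or Eef and a number, with the interferon-induced kinase Eif2ak2 left out. On the array, 57 such genes were read by 152 probe sets that named 1 gene, out of 18193 genes and 34945 probe sets of that kind in all. Mice received a high-fat diet (60% of energy from fat) to which the iron salt sodium ferrous citrate was added at 0.023% by weight (HF+SFC), the high-fat diet alone (HF), or a control diet with 10% of energy from fat (Control). No gene was altered in any group as far as the labels say, and diets were given for 15 weeks from 6 weeks of age. The labels give the age as 21 months, at odds with these times. For each group the material of all mice was mixed and put on 1 array, and the number of mice in a mix was not given for the arrays in the sources used here. With n = 1 pool per group, no difference below has a replicate check, and no test between diets could be run.

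Translation starts when a small ribosomal subunit, carrying the initiator tRNA on eIF2, is loaded by eIF3 onto an mRNA whose cap is held by eIF4E, eIF4G and the helicase eIF4A. It then scans to a start codon, which eIF1, eIF1A and eIF5 help to select, and eIF5B joins the large subunit. In elongation eEF1A brings each aminoacyl-tRNA and eEF2 moves the ribosome by 1 codon. The main brakes are kinases that phosphorylate eIF2α, among them the heme-regulated HRI (Eif2ak1), the 4E-binding proteins that sequester eIF4E, and the kinase of eEF2 (Eef2k). In liver, where much of the protein made is exported to plasma, these brakes respond to amino acids, insulin, heme and stress of the endoplasmic reticulum, mostly through the proteins' activity and not through the level of their mRNA.

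The values are MAS5 signals, intensities on a linear scale, so that a signal compares 1 probe set between arrays and is no level of one gene against another. Each gene was represented by its brightest probe set, and it was kept where the mean signal of that probe set reached 76.9, the median of all probe sets. Of the 57 genes 54 were kept, and 48 of these lay in the upper 25% of signal (394 or more). The helicase Eif4a3, the second eIF5A gene Eif5a2 and the eEF2 methyltransferase Eef2kmt were too dim. The hepatocyte transcript Alb gave signals of 52200 in HF+SFC, 50600 in HF and 54100 in Control, high on each array as in liver. Macrophage markers moved with the diets, with median log2 ratios of 0.51 (HF over Control) and -0.46 (HF+SFC over HF) in 17 kept of 19 listed markers. Their signals summed over the 19 found were 24260 in HF+SFC, 33540 in HF and 24400 in Control. Stellate cell and matrix markers (12 kept of 13) had medians of 0.83 and -0.49 in these comparisons, with sums of 17710 in HF+SFC, 23850 in HF and 15120 in Control. Endothelial markers (10 kept of 10) had medians of 0.16 and -0.16. Lymphocyte markers were dim (2 kept of 9), as were those of bile duct cells (3 kept of 5). No marker on these lists was at 0. Signal ratios of 3′ over 5′ probe sets were 1.73 in HF+SFC, 1.65 in HF and 1.84 in Control for Actb, and 0.708, 0.680 and 0.708 for Gapdh in the same order. In bulk RNA, a change in the share of a cell type cannot be told apart from a change of RNA per cell, and the part of these markers in the differences below was not tested.

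HF was compared with Control to describe the liver after the high-fat diet. Most translation factor genes differed little. The highest genes in HF were Eef2k, the amino acid sensing eIF2α kinase Eif2ak4 and the eEF1A methyltransferase Eef1akmt2, and the lowest was Eef1a2, the eEF1A gene of muscle and neurons. Of the 54 kept genes 3 were at least 1.5-fold higher, where 11.3% of all 11341 kept genes were, and 1 was at least 1.5-fold lower, where 5.84% were. The median log2 ratio was -0.13, with 34 genes below 0 and 20 above, and the median of all kept genes was 0.03. In the upper 25% of signal the median of 48 genes was -0.15, with 33 below 0 and 0 beyond 1.5-fold, and that of all 6834 genes at this level was -0.01, with 10.6% beyond 1.5-fold. The median of the translation factor genes stayed negative under quantile, median and lowess scaling. The log2 ratios of the kept probe sets of one of these genes scattered with an SD of 0.33, and of 0.21 in the upper 25% of signal. This scatter arises within the same pools and says nothing of the spread between mice or between pools.

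HF+SFC was compared with HF to describe iron on top of the high-fat diet. Here 1 of 54 genes was at least 1.5-fold higher, Eef1a2, where 2.88% of all kept genes were, and 1 was at least 1.5-fold lower, the cap-binding Eif4e3, where 5.33% were. The median log2 ratio was 0.06, with 34 genes above 0 and 20 below, against -0.01 over all kept genes. It was 0.07 in the upper 25% of signal, where the median of all genes was 0.02 and 0 of 48 genes were beyond 1.5-fold (1.68% of all genes). The sign held under quantile, median and lowess scaling, with values of 0.03, 0.18 and 0.03. Median centring also moved the median of all kept genes to 0.11. In HF+SFC over Control, 2 of 54 genes were at least 1.5-fold higher, Eef2k and Eif2d (9.20% of all kept genes), and 0 at least 1.5-fold lower (6.88%), with a median of -0.04. In the upper 25% of signal 1 of 48 genes, Eif2d, was beyond 1.5-fold there (10.5% of all genes). The 3 comparisons share arrays, so that their values are not independent of each other.

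Across the 3 arrays, the signal of a translation factor gene spanned 1.18-fold at the median, and 32 of 54 genes (59.3%) stayed within 1.2-fold. Over all kept genes the median span was 1.29-fold and 34.7% stayed within 1.2-fold. Restricted to the upper 25% of signal these shares were 66.7% of 48 genes and 46.0% of 6834 genes. The plot of relative signal by role shows that wide spans were few.

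**Figure D1:**
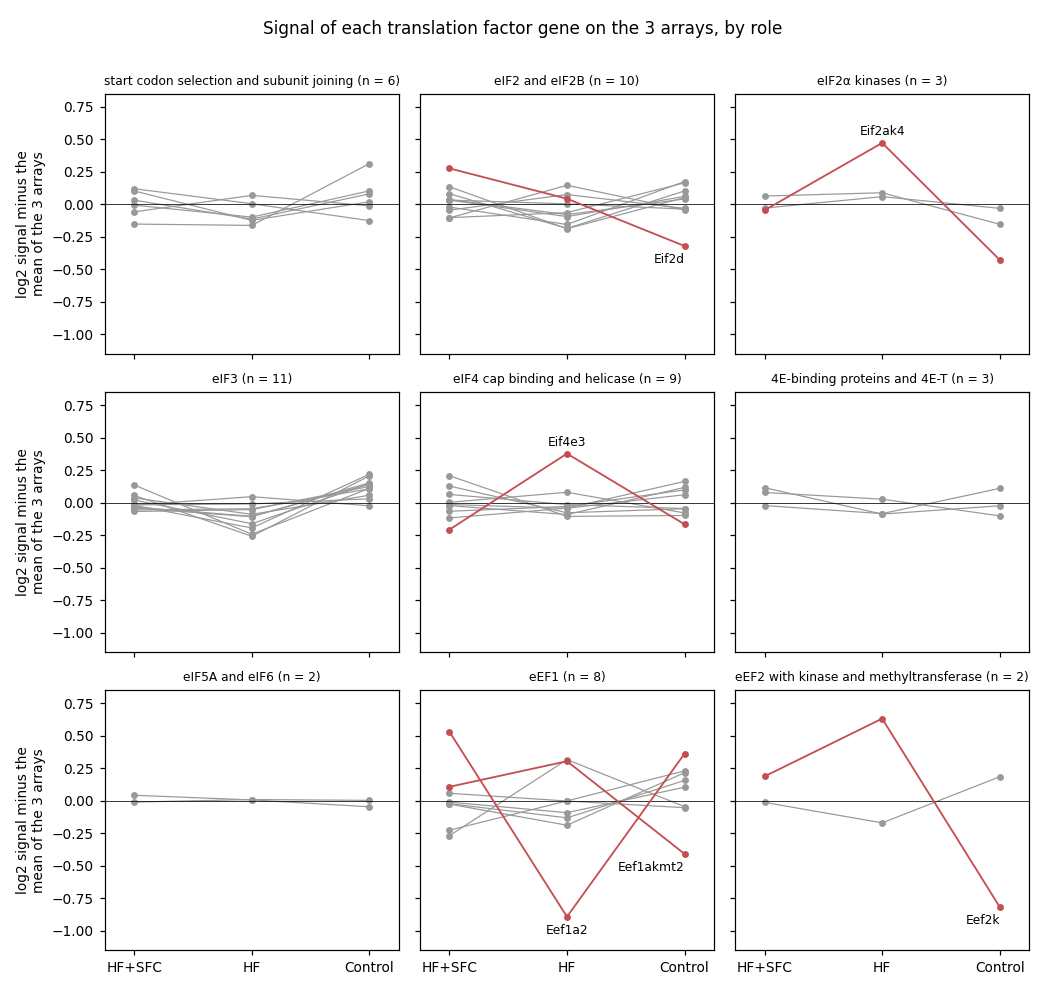
Signal of each of the 54 kept genes on the HF+SFC, HF and Control arrays (x axis), as log2 signal minus the mean of its 3 arrays (y axis), in 1 panel per role with 1 line per gene and 1 array per group. Red lines are the 6 genes with a span of 1.5-fold or more, and Eef2k (lowest in Control) and Eef1a2 (lowest in HF) reach farthest from 0.

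Start codon selection was read through 6 genes, and none was beyond 1.5-fold in a comparison by its brightest probe set. Their median was -0.17 in HF over Control and 0.10 in HF+SFC over HF. Eif1a, whose product opens the small subunit for scanning, gave 1420 in HF+SFC, 1410 in HF and 1960 in Control. It was thus 1.39-fold lower in HF than in Control and level between HF+SFC and HF, and its other kept probe set had a log2 ratio of -0.29 in HF over Control. The X-linked copy Eif1ax gave 1520 in HF+SFC, 1660 in HF and 1570 in Control, and a second probe set of it stood at -0.06 in HF over Control, while another, dim one stood at -1.16. Eif1ad, which resembles eIF1A, gave 1170 in HF+SFC, 1080 in HF and 987 in Control by its brightest probe set. Its other kept probe set gave 634, 299 and 580, and was 1.94-fold lower in HF than in Control and 2.12-fold higher in HF+SFC than in HF, so that the probe sets of this gene disagree. Eif5, the GTPase activator of eIF2, gave 8240, 7730 and 8890 in HF+SFC, HF and Control, and all 5 of its kept probe sets were below 0 in HF over Control, between -0.30 and -0.08.

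Genes of eIF2, which carries the initiator tRNA, and of eIF2B, which recharges it with GTP, were grouped by symbol with Eif2a and Eif2d. These 10 genes had a median of -0.14 in HF over Control and of 0.12 in HF+SFC over HF. Eif2s1, the gene of the α subunit, was not among the genes analysed. Eif2s2, the β subunit, gave 5880 in HF+SFC, 5360 in HF and 6740 in Control, and 4 of its 5 kept probe sets were below 0 in HF over Control, over a range from -0.78 to 0.04. The γ subunit has an X-linked and a Y-linked gene in mice. Eif2s3x gave 6000, 5880 and 5720 in HF+SFC, HF and Control, and Eif2s3y gave 2070, 2250 and 2090. Both were within 1.1-fold on the 3 arrays, and the Y-linked signal was present on each, matching the label male. Among the 5 eIF2B genes Eif2b5, the catalytic ε subunit, gave 993 in HF+SFC, 794 in HF and 937 in Control, and was 1.25-fold higher in HF+SFC than in HF by this probe set, where its other, dimmer one stood at -0.06. Eif2d, which can deliver initiator tRNA without eIF2, gave 1740 in HF+SFC, 1480 in HF and 1150 in Control, and was 1.51-fold higher in HF+SFC than in Control. Its 4 kept probe sets did not share a direction in that comparison and ranged from -0.38 to 0.95 on the log2 scale. The value of -0.38 came from the only one without a suffix, the mark of probe sets that may match several transcripts. That probe set was the dimmest of the 4, with a mean signal of 125 against 1440 for the brightest.

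By their brightest probe sets the 3 eIF2α kinases had log2 ratios of 0.09 (Eif2ak1), 0.24 (Eif2ak3) and 0.90 (Eif2ak4) in HF over Control, where 6027 of 11341 kept genes were above 0. Eif2ak4 (GCN2), which responds to uncharged tRNA, gave 176 in HF+SFC, 252 in HF and 135 in Control. The HF pool was the highest, 1.86-fold over Control, and HF+SFC was 1.43-fold lower than HF. It was read by 1 kept probe set, and the other one, at a signal under 50 on every array, had a log2 ratio of -3.53 in HF over Control. Eif2ak3 (PERK), the sensor of the endoplasmic reticulum, gave 737 in HF+SFC, 750 in HF and 634 in Control. Eif2ak1 (HRI), the kinase that heme holds inactive, gave 682, 725 and 681 in HF+SFC, HF and Control, a span of 1.06-fold. Its 3 kept probe sets ranged from -0.49 to 0.67 in HF over Control and from -0.39 to 0.12 in HF+SFC over HF, so that no direction can be given for the mRNA of this kinase in either comparison. The median of the 3 kinases in HF+SFC over HF was -0.09 and turned positive under median centring (0.03).

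Genes that act on the same switch were counted beside them. Of 5 regulators of eIF2α phosphorylation, all kept, 0 were beyond 1.5-fold in HF over Control and 0 in HF+SFC over HF. Over all kept genes these shares were 17.1% and 8.22%. The median of the 5 in HF over Control was -0.30. Ppp1r15a (GADD34), which guides the phosphatase to eIF2α, gave 292 in HF+SFC, 393 in HF and 485 in Control and was 1.66-fold lower in HF+SFC than in Control. Of 25 listed targets of the integrated stress response, which phosphorylated eIF2α sets in motion through the factor ATF4, 20 were kept. In HF over Control 2 were at least 1.5-fold higher and 2 lower (median -0.05), where 11.3% and 5.84% of all kept genes were. In HF+SFC over HF 2 were higher and 1 lower (median -0.07, positive under median centring at 0.05), where 2.88% and 5.33% were. Atf4 itself gave 2490 in HF+SFC, 2380 in HF and 2750 in Control. Asns, the asparagine synthetase, gave 215 in HF+SFC, 118 in HF and 121 in Control. The other kept targets beyond 1.5-fold in these comparisons were Phgdh, Slc7a5, Atf3 and Fgf21. Phgdh gave 68.5, 221 and 69.5 in HF+SFC, HF and Control, and Slc7a5 gave 126, 47.0 and 87.3. The 68.5 and 69.5 of Phgdh and the 47.0 of Slc7a5 were under the kept level of 76.9. Atf3 gave 147, 173 and 99.8, and Fgf21 gave 365, 397 and 1380. The counts of the list did not point one way in either comparison.

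eIF3, the scaffold that binds the small subunit, is built of many subunits, and 11 of its genes were kept. In HF over Control 10 of 11 were below 0 (5314 of 11341 kept genes were), with a median of -0.25 and 0 beyond 1.5-fold, and the median was -0.21 under quantile and lowess scaling. Higher signals in HF+SFC than in HF were seen for 7 of 11 (median 0.07), where 5538 of 11341 kept genes were above 0. Of all genes with a signal of 1000 or more, where these 11 lie, 2310 of 4016 were above 0. Eif3d, the subunit that can bind the cap, gave 2910 in HF+SFC, 2340 in HF and 3230 in Control and was 1.38-fold lower in HF than in Control. Eif3k gave 2110 in HF+SFC, 1870 in HF and 2490 in Control. Eif3m gave 2250 in HF+SFC, 1730 in HF and 2210 in Control, and was 1.30-fold higher in HF+SFC than in HF. Its second, dimmer probe set stood at -0.64 in that comparison. Eif3c, a core subunit, hardly differed, with 6080 in HF+SFC, 6110 in HF and 6280 in Control, and its 4 probe sets lay between -0.06 and 0.02 in HF over Control. Of these 4 subunits 3 were lowest in HF.

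**Figure D2:**
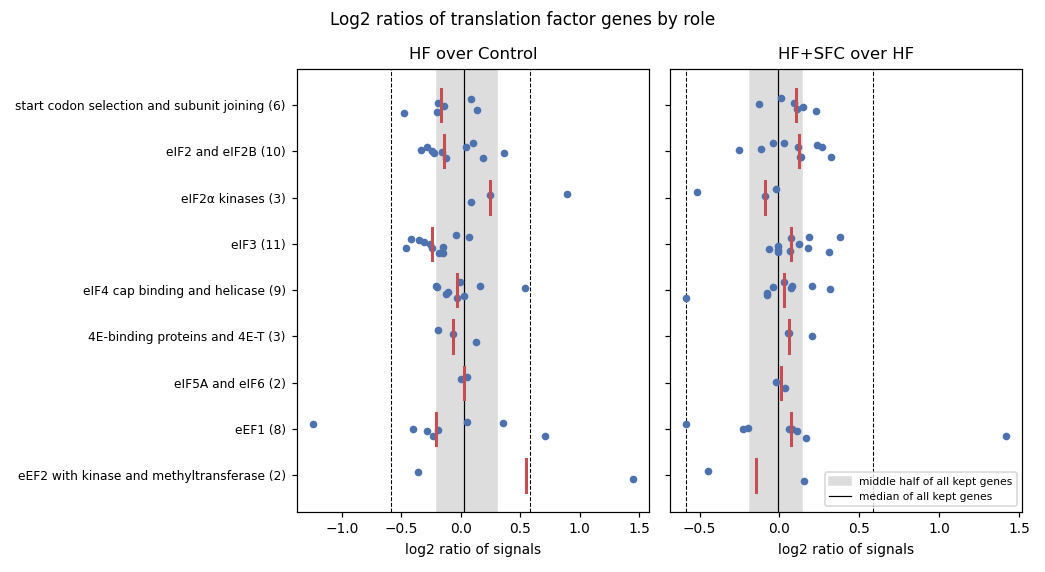
Log2 ratio of signals (x axis) of the kept genes by role (y axis, number of genes in parentheses) for HF over Control and HF+SFC over HF, each from 1 array per group. Blue points are genes, red bars medians of a role, the grey band the interquartile range of all 11341 kept genes with their median as a black line, and dashed lines 1.5-fold. eIF3 lies at a median of -0.25 on the left, and Eef1a2 is the point at 1.42 on the right.

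The kept genes of the cap-binding complex and its helicase were mostly level by their brightest probe sets. Eif4g1, a gene of eIF4G, was not among the genes analysed. Over 9 genes the median was -0.03 in HF over Control, slightly positive under quantile (0.01) and lowess scaling, and 0.03 in HF+SFC over HF, slightly negative under quantile and lowess scaling (-0.01 each). Eif4e, the cap-binding protein, gave 2460 in HF+SFC, 1980 in HF and 1990 in Control. It was 1.24-fold higher in HF+SFC than in HF by this probe set, and its 4 kept probe sets lay between -0.12 and 0.31 on the log2 scale. The helicase gene Eif4a2 gave 15800 in HF+SFC, 13700 in HF and 14000 in Control. Eif4g2, a relative of eIF4G that does not bind eIF4E, gave 19000, 19500 and 21300 in HF+SFC, HF and Control. Eif4b, which stimulates the helicase, gave 4840 in HF+SFC, 5100 in HF and 5880 in Control, and its 3 probe sets were all below 0 in HF over Control, between -0.26 and -0.20. By the brightest probe sets of Eif4e, Eif4a2, Eif4g2 and Eif4b, the widest span was 1.24-fold, that of Eif4e.

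Eif4e3, a cap-binding relative of eIF4E, stood apart from them. It gave 276 in HF+SFC, 414 in HF and 284 in Control, so that only HF was high. The 1.502-fold lower signal in HF+SFC than in HF lay just past 1.5-fold, and Eef1aknmt, a methyltransferase of eEF1A, lay just short of it at 1.497-fold. Under quantile, median and lowess scaling and with a pseudocount of 16, 0 genes were at least 1.5-fold lower in HF+SFC than in HF. The other probe set of Eif4e3 gave 233 in HF+SFC, 239 in HF and 93.5 in Control, that is, high in both high-fat pools. The 2 probe sets were both higher in HF than in Control (0.54 and 1.35 on the log2 scale) and differed on HF+SFC over HF (-0.59 and -0.04).

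The 4E-binding proteins hold eIF4E away from eIF4G until mTORC1 phosphorylates them. Eif4ebp1 gave 4260 in HF+SFC, 4110 in HF and 3760 in Control, and its 3 kept probe sets were above 0 in HF over Control, between 0.02 and 0.83, the highest from a probe set with signals of 140, 156 and 87.8 in HF+SFC, HF and Control. Eif4ebp2 gave 3330 in HF+SFC, 3190 in HF and 3650 in Control. Their spans over the arrays were 1.13-fold and 1.14-fold. Of 20 listed genes of the mTORC1 pathway 19 were kept, and in HF over Control 4 were at least 1.5-fold higher and 1 lower (median 0.13), where 11.3% and 5.84% of all kept genes were. Between HF+SFC and HF 0 were higher and 1 lower (median -0.00, positive under quantile, median and lowess scaling), where 2.88% and 5.33% were. Mknk2, a kinase that phosphorylates eIF4E, gave 7280 in HF+SFC, 6810 in HF and 4210 in Control, and Larp1, which binds the messages of ribosomal proteins, gave 2360, 2140 and 3280. Mknk2 was thus high and Larp1 low in both high-fat pools.

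Of the factors that act late in initiation and in elongation through eIF5A, Eif5a was the steadiest gene of all 54. It gave 21900 in HF+SFC, 22200 in HF and 22100 in Control, a span of 1.013-fold, and its second probe set, with signals of 4080, 4170 and 4080 in HF+SFC, HF and Control, stayed between -0.03 and 0.03 in the 3 comparisons. Eif6, which keeps the large subunit from joining early, gave 2850, 2780 and 2680 in HF+SFC, HF and Control.

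The eEF1 genes showed both steady and uneven members. Eef1a1, which encodes the eEF1A of most cells, gave 45800 in HF+SFC, 43300 in HF and 49600 in Control. The subunits that recharge it with GTP followed the same order, with 9630 in HF+SFC, 8930 in HF and 10900 in Control for Eef1b2 and 5160, 4610 and 6100 for Eef1d. Each was lowest in HF and highest in Control, by 1.14-fold for Eef1a1, 1.22-fold for Eef1b2 and 1.32-fold for Eef1d. Eef1a2 went another way, with 271 in HF+SFC, 101 in HF and 241 in Control. It was 2.37-fold lower in HF than in Control and 2.67-fold higher in HF+SFC than in HF, at percentiles of 0.9 and 99.7 of all kept genes. It was read by 1 probe set, so that the pattern has no check by another, and the signal of 101 in HF was close to the kept level. Skeletal muscle genes, listed after these values were seen, were dim, with 3 of 10 kept and a summed signal of 586.8 in HF+SFC, 387.7 in HF and 543.0 in Control. The muscle actin Acta1 gave 138 in HF+SFC, 45.0 in HF and 99.4 in Control, its signal in HF being under the kept level. Ckm, Myh4, Tnnt3, Mylpf and Tnnc2 were also lowest in HF, but none of these was kept. Mb and Actn3, not kept either, and the kept Pvalb and Atp2a1 were not lowest in HF. The part of muscle RNA in the signal of Eef1a2 was not tested. Eef1e1, a scaffold protein of the tRNA synthetase complex, gave 650 in HF+SFC, 760 in HF and 892 in Control. The methyltransferase gene Eef1akmt2 gave 246 in HF+SFC, 282 in HF and 172 in Control and was 1.64-fold higher in HF than in Control, while Eef1akmt1 spanned 1.08-fold by its brightest probe set and 1.54-fold or more by 2 others.

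At the elongation step, the factor and its brake differed in opposite directions in HF over Control. Eef2 gave 11600 in HF+SFC, 10400 in HF and 13300 in Control. By its 1 kept probe set it was 1.28-fold lower in HF than in Control, a comparison in which 34 of the 54 genes were below 0. Eef2k gave 305 in HF+SFC, 415 in HF and 152 in Control. It was 2.74-fold higher in HF than in Control and 2.01-fold higher in HF+SFC than in Control, and the pools of both high-fat diets lay above Control. These values are of a suffixed probe set, which may match several transcripts. The others, without a suffix, were 1.79-fold and 1.56-fold higher in HF than in Control. In HF over Control its 3 kept probe sets stood at 1.45, 0.84 and 0.65 on the log2 scale. Among 31 genes with 2 or more kept probe sets, all passed 1.5-fold upward in 1, Eef2k. This is close to the share of the whole array, 3.29% of 5020 genes with 2 or more kept probe sets. In none of the 31 did all pass 1.5-fold downward (1.61% of the 5020). The same 3 probe sets of Eef2k stood at 1.01, 0.62 and 1.18 in HF+SFC over Control, again all past 1.5-fold (2.55% of the 5020 genes). With iron on the high-fat diet they were at -0.44, -0.22 and 0.54 (HF+SFC over HF) and thus shared no direction. In HF over Control the macrophage markers had a median of 0.51 and the stellate cell and matrix markers of 0.83. In HF+SFC over Control these medians were -0.00 and 0.22. The part of either cell type in the signal of Eef2k was not tested.

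**Figure D3:**
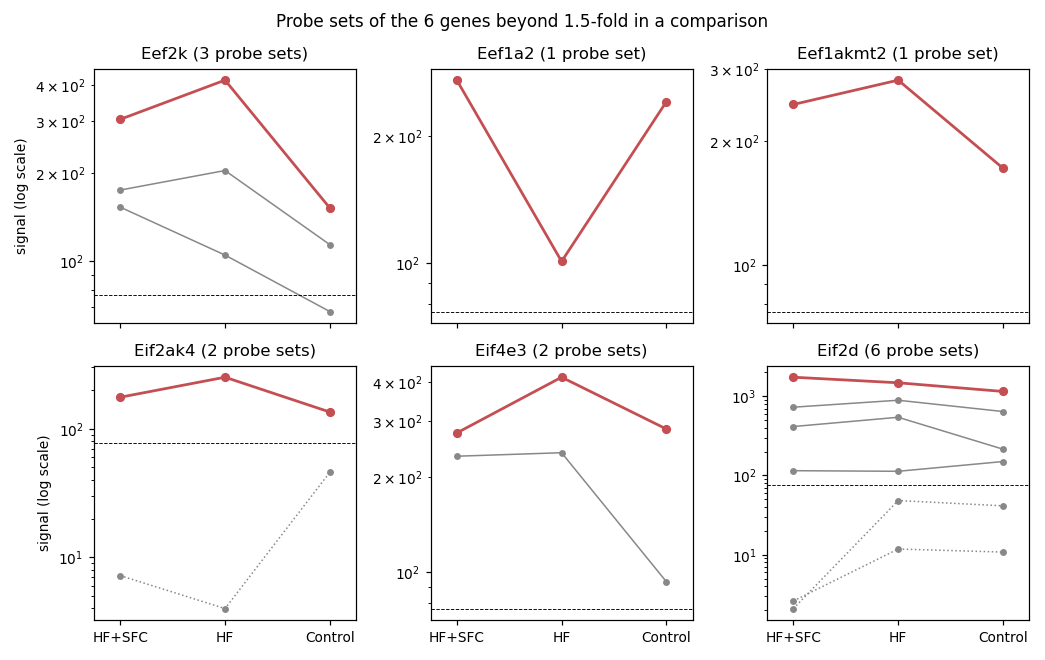
Signal (y axis, log scale, own range per panel) of every probe set of the 6 genes beyond 1.5-fold in a comparison, on the HF+SFC, HF and Control arrays (x axis). Red is the brightest probe set, which was used, grey the others, dotted those below the kept level, and the dashed line the kept level of 76.9. The 3 probe sets of Eef2k are lowest in Control, while those of Eif2d and Eif4e3 differ in shape.

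The stretches just upstream of the annotated starts of both gene pairs are shown because the partners differed in their ratios, Eef2k from Eef2 and Eef1a2 from Eef1a1. They are RefSeq sequence of build GRCm38.p6, 120 bases before the start, 5′ to 3′ on the strand of the gene. Capitals mark the E-box CACGTG, a motif of MYC and related factors that reads the same on both strands.
Eef2k, chr7:120842711-120842830, plus strand: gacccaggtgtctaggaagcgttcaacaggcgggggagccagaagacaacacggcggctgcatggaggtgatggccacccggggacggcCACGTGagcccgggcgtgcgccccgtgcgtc
Eef2, chr10:81176511-81176630, plus strand: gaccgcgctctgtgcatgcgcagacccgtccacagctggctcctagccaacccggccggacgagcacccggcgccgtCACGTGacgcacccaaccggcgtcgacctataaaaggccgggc
Eef1a2, chr2:181157016-181157135, minus strand: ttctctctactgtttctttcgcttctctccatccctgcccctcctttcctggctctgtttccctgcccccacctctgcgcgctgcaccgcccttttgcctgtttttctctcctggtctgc
Eef1a1, chr9:78481725-78481844, minus strand: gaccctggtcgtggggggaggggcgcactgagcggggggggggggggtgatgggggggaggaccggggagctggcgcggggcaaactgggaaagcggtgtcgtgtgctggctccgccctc
Eef2k and Eef2 both held the E-box, beginning 31 and 43 bases before the start. The part of this motif in their signals was not tested. The eEF1A pair held none in this stretch, and C or T made up 82.5% of the bases shown for Eef1a2, against 33.3% for Eef1a1. For Eef2k the first of 3 annotated starts is shown.

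Windows of 300 bases, 250 before and 50 after each start, were given for 46 of the 57 genes (61 windows). CACGTG stood in 14 of the 61 windows (23.0%), of 12 genes, and in 7.15% of 32851 windows of all genes. CCGGAAGT, a motif of ETS factors, stood on either strand in 11 of 61 (18.0%), against 3.89% of all windows. TGATGNAA, the core of sites bound by ATF4 with C/EBP factors, stood in 2 of 61 (3.28%), against 3.97%. Windows of one gene may overlap, none of these strings contains another, and the shares are descriptions of letters. The 12 genes with the E-box were Eef1aknmt, Eef2, Eef2k, Eif1b, Eif3a, Eif3f, Eif3k, Eif4a1, Eif4e, Eif4h, Eif5a and Eif5a2. The part of any of these motifs in the ratios was not tested.

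Other translation factors outside the name rule were counted for comparison. Of 19 listed cytosolic factors of termination, recycling, poly(A) binding and other steps 17 were kept. In HF over Control 16 were below 0 (median -0.22), where 5314 of 11341 kept genes were. Beyond 1.5-fold were 0, against 17.1% of all kept genes. The release factor Etf1 gave 1670 in HF+SFC, 1390 in HF and 1880 in Control, and the helicase Ddx3x gave 7220, 7180 and 9480. Between HF+SFC and HF 11 of 17 were above 0 (median 0.03), where 5538 of 11341 kept genes were. Beyond 1.5-fold were 0, against 8.22% of all kept genes. Hepatocyte markers also stood below 0 in HF over Control in 6 of 7 (median -0.09, positive under quantile and lowess scaling), and the part of the share of hepatocytes in the lower signals was not tested.

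**Figure D4:**
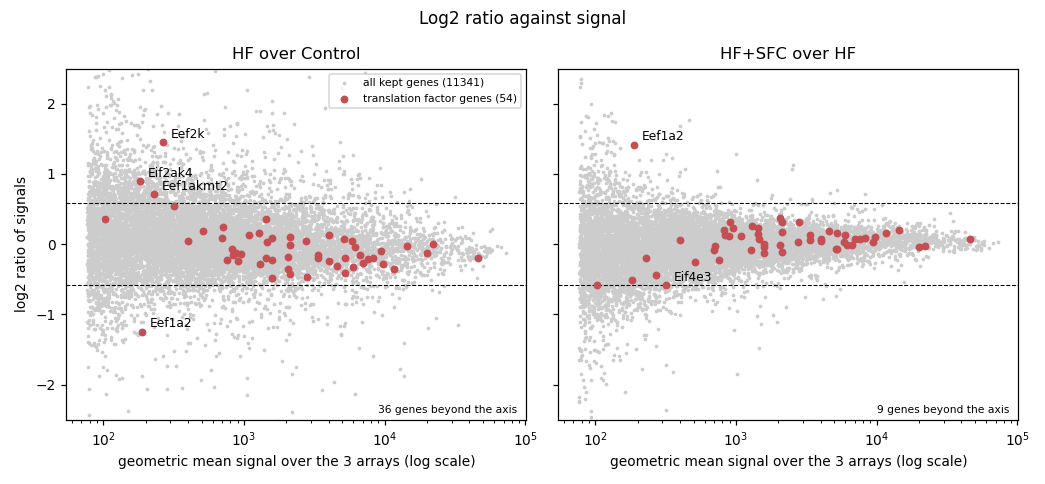
Log2 ratio of signals (y axis) against mean signal, taken on the log scale over all arrays (x axis, log scale), for HF over Control and HF+SFC over HF. Grey points are all 11341 kept genes, red points the 54 translation factor genes, and dashed lines 1.5-fold. The 6 kept translation factor genes below a signal of 394 include every one of them beyond the dashed lines in these 2 comparisons.

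The translation factor genes beyond 1.5-fold in HF over Control or in HF+SFC over HF all lay below the upper 25% of signal, as the plot of ratio against signal shows. Of the 6 kept translation factor genes in that range 4 were beyond 1.5-fold in HF over Control and 2 in HF+SFC over HF, where 27.0% and 18.1% of all 4507 kept genes in that range were. The median of these 6 genes had the opposite sign to that of all 54 in each comparison, with 0.63 in HF over Control, -0.48 in HF+SFC over HF and 0.28 in HF+SFC over Control. Over the 4507 genes the medians were 0.13, -0.08 and 0.05. Of the probe sets of all 57 genes that lay below the kept level, 48.4% of 31 were beyond 1.5-fold in HF over Control and 54.8% in HF+SFC over HF, against 11.6% and 6.61% of the 121 at or above it. Of 31 genes with 2 or more kept probe sets, all probe sets were above 0 in 5, all below 0 in 10, and on both sides in 16 in HF over Control. In HF+SFC over HF the numbers were 6, 3 and 22. Of all 5020 genes with 2 or more kept probe sets, 29.1% had all above 0 and 26.0% all below 0 in HF over Control. In HF+SFC over HF these shares were 20.2% and 24.8%, and the remaining genes stood on both sides.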

How the data were processed

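Total RNA of liver was labelled with biotin by the authors and hybridised to Affymetrix mouse arrays, 1 per group. The authors deposited MAS5 signals, which are linear intensities; the MAS5 version is not given in the sources used here. On each of the 3 arrays the signals had a 2% trimmed mean of 500.004, so that differences in total signal had been removed before deposit. Precision is limited by the number of arrays, and no detection calls were used. Of 45037 probe sets other than 64 controls, 34945 named 1 gene, 932 several and 9160 were not listed in the platform annotation. Of those with several genes, 8 included a translation factor gene and were not used. All 57 genes matched a RefSeq entry of GRCm38.p6 by Entrez identifier, and 0 symbols differed.

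Log2 ratios of signals of the brightest probe set were taken, genes were kept in the upper 50% of signal, and 1.5-fold, the threshold used in the study, served for counts. Medians and counts were set beside those of all kept genes. Named are the genes beyond 1.5-fold, the 5 brightest, the 3 highest and 3 lowest of each comparison and 15 genes chosen by role, of which 3 were not analysed here. These 3 were Eif2s1, Eif4g1 and Eif4ebp3. Other genes serve as examples of their role and were picked with their values seen. The translation factor genes, roles and lists were chosen with earlier results of these data known. Alternatives were quantile, median and lowess (fraction 0.3) scaling, other filters on signal, a pseudocount of 16, the median over probe sets, leaving out suffixed probe sets, which may match several transcripts, and a 2-fold threshold. The steps were tested on simulated data and run with Python 3.11.15, pandas 2.3.3 and statsmodels 0.14.6.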

Additional observations from a re-analysis of the deposited data

How the results depend on the processing

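The median log2 ratio of the translation factor genes kept its sign in all 3 comparisons under every alternative run, all of which include the bright genes. The 6 kept genes below the upper 25% of signal, taken alone, had medians of the opposite sign. Counts beyond 1.5-fold, small in all cases, moved. With no filter on dim probe sets, 2 genes were lower in HF than in Control, and HF+SFC had 2 genes lower against HF and 1 lower against Control. Without that filter Eif4a3, at a mean signal of 7.11, was also 4.02-fold higher in HF than in Control. In the upper 25% of signal, and at a mean signal of 1000 or more, an alternative chosen after seeing the data, 0 genes were higher or lower in HF over Control, 0 in HF+SFC over HF, and 1 was higher in HF+SFC over Control. The genes lost lie below those levels. Of all genes in the upper 25% of signal, 10.6%, 1.68% and 10.5% were beyond 1.5-fold in these comparisons, in the same order. At a signal of 1000 or more these shares were 9.26%, 0.896% and 9.31%. No share of all genes is set beside the counts of the other alternatives here. Under quantile, median and lowess scaling, with a pseudocount of 16, as medians over probe sets and at 2-fold, the count of genes lower in HF+SFC against HF was 0. As medians over probe sets 2 genes were higher in HF+SFC than in HF. At 2-fold 1 gene was higher in HF and 1 in HF+SFC than in Control. The causes of the other moves were not tested.

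Eif2d in HF+SFC over Control reversed to -0.38 without suffixed probe sets, where it was read by a probe set with a mean signal of 125. Among named genes, 605 of 615 recomputed values moved by less than the SD between probe sets. Part of this was fixed in advance, because a change of signal filter leaves the ratio of a kept gene as it was. The same holds for the median over probe sets in a gene with 1 kept probe set. No paired analysis was possible because each group held 1 array. Dim signals limit Eef1a2, Eif2ak4 and Eef1akmt2, each with 1 kept probe set. The 3 kept probe sets of Eef2k were dim as well, with mean signals of 268, 159 and 103.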

Other observations

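Factors of mitochondrial translation, encoded in the nucleus and outside the name rule, were read through 9 kept genes. In HF over Control 7 of 9 were above 0 (6027 of 11341 kept genes were), with 0 beyond 1.5-fold (17.1% of all kept genes). Their median was 0.15, and it was 0.05 under quantile, median and lowess scaling. In HF+SFC over HF 6 of 9 were above 0 (5538 of 11341 kept genes were), with a median of 0.07. At least 1.5-fold higher was 1 gene (2.88% of all kept genes). That gene was Mtrf1l, a mitochondrial release factor, with signals of 419 in HF+SFC, 265 in HF and 252 in Control. Tsfm, which recharges the mitochondrial elongation factor, gave 565 in HF+SFC, 545 in HF and 372 in Control, and Mtif3, an initiation factor, gave 741, 623 and 863. No difference between the mitochondrial and the cytosolic lists was tested.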
